A study of Arabidopsis thaliana with 18 samples.

Results

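Of 32833 locus codes counted in Arabidopsis roots, 85 were clearly present in Col-0 treated with abscisic acid (ABA), the plant hormone of drought and osmotic stress, and nearly silent in Col-0 mock. The choice used a mean level of at least 1 CPM (a gene's reads scaled to a fixed library total) in the 3 Col-0 ABA libraries and under 0.2 CPM in the 3 Col-0 mock libraries. From these 85 genes, 0.259% of the locus codes, 10 named ABA and dehydration genes were set aside, among them LEA7 and MYB102, and 75 genes remained. The 75 are 73 protein-coding genes and 2 long non-coding RNAs by the RefSeq annotation, and 31 of them have a symbol there. Because the Col-0 libraries chose the genes, Col-0 values are given below as a description, and only libraries of the mutants were tested.

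The study measured RNA from roots, with roots of 1 cm named in its design, of seedlings aged 5 days that were moved to plates with 1 µM ABA or to mock plates for 8 h. The genotypes were vnd123, a line mutated in VND1, VND2 and VND3 together, vnd7, mutated in VND7, and the wild type Col-0. Each genotype had 3 ABA libraries and 3 mock libraries, 18 in all, and each sample pooled 50 to 100 seedlings. The alleles are not named in the labels, and the labels do not say that the numbered samples came from separate plantings, so the p-values rest on a spread that may be technical in part or whole. In bulk roots, fewer cells that express a gene and less RNA per cell cannot be told apart.

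Total counts were 38325491 to 58705802 per library, which at a level of 0.2 CPM left only a few reads per library. All 12 root marker genes were measured, and the most abundant of them, the beta-glucosidase gene PYK10, averaged 5830, 5490 and 5570 CPM in vnd123, vnd7 and Col-0 ABA. The summed level of 10 shoot photosynthesis genes ran from 48.0 to 96.8 CPM in the ABA libraries and from 72.9 to 141 CPM in the mock libraries, and 2 of these genes had 0 reads throughout. The mutated loci were reduced in their lines but not empty. VND7 averaged 0.287 CPM in vnd7 ABA, against 5.42 CPM in Col-0 ABA. VND1, VND2 and VND3 averaged 0.140, 0.671 and 1.37 CPM in vnd123 ABA, against 0.927, 3.32 and 5.57 CPM in Col-0 ABA. The VND7 mean was also lower in vnd123 than in Col-0, at 2.90 against 5.42 CPM with ABA and 1.95 against 2.37 CPM in mock. In vnd7 ABA, VND1, VND2 and VND3 averaged 1.19, 4.08 and 7.01 CPM.

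ABA is bound by receptors of the PYR/PYL family, which then inhibit clade A protein phosphatases 2C (PP2C). The kinases freed by this act on basic leucine zipper (bZIP) factors that bind promoter elements with the core ACGTG, called ABA-responsive elements. In roots this pathway slows growth and induces proteins that protect cells from water loss. VND proteins belong to the NAC family of transcription factors and start the differentiation of xylem vessels, through which water is conducted.

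All 75 genes were higher in all 3 ABA libraries than in all 3 mock libraries of vnd123 and of vnd7. The thresholds that chose the genes used no library of these genotypes, but they were set with earlier results of these data known. Among all 20869 genes tested, 19% in vnd123 and 18.1% in vnd7 showed such a separation. By edgeR's quasi-likelihood test with Benjamini-Hochberg adjustment over all genes tested, 74 of the 75 rose with ABA in vnd123, where 18.6% of all genes rose. In vnd7, 74 of the 75 rose, where 18.8% of all genes rose. The member that missed the threshold was the same in both mutants, AT1G17345, which encodes a protein like the auxin-induced SAUR proteins. In vnd123 and vnd7, 13.8% and 14.5% of all genes fell and 0 of the 75, which were chosen for low mock levels and so had little room to fall. The 3 Col-0 ABA libraries were by themselves enough to carry all 75 past the filter on low counts. With filter and fit on the mutants' libraries alone, 75 were called in vnd123 and 74 in vnd7. Without 1 library at a time, the count in vnd7 was 72 to 74: AT5G09210, a GC-rich sequence DNA-binding factor-like protein, lost its call without vnd7 ABA 1, vnd7 ABA 2, vnd7 mock 1 or vnd7 mock 3, and THA1, a threonine aldolase, without vnd7 mock 2 or vnd7 mock 3.

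The median fitted log2 change over the 75 genes was 5.31 in vnd123 and 5.85 in vnd7. The median over all genes tested, in which higher and lower genes offset each other, was 0.01 in each, and the 75 were chosen for a large rise in Col-0. Fitted changes of genes with 0 mock reads depend on the fitting method, so folds of pooled reads are given as well. Each is a group's summed reads over its summed library totals, ABA over mock, and can differ slightly from a ratio of mean CPM. With the 12 genes without vnd123 mock reads and the 11 without vnd7 mock reads placed at their lower bound (3 counts over the group), the median fold was 29.9 in vnd123 and 49.0 in vnd7, beside 37.6 in Col-0. The response was at least 10-fold for 62 genes in vnd123, 65 in vnd7 and 67 in Col-0.

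**Figure D1:**
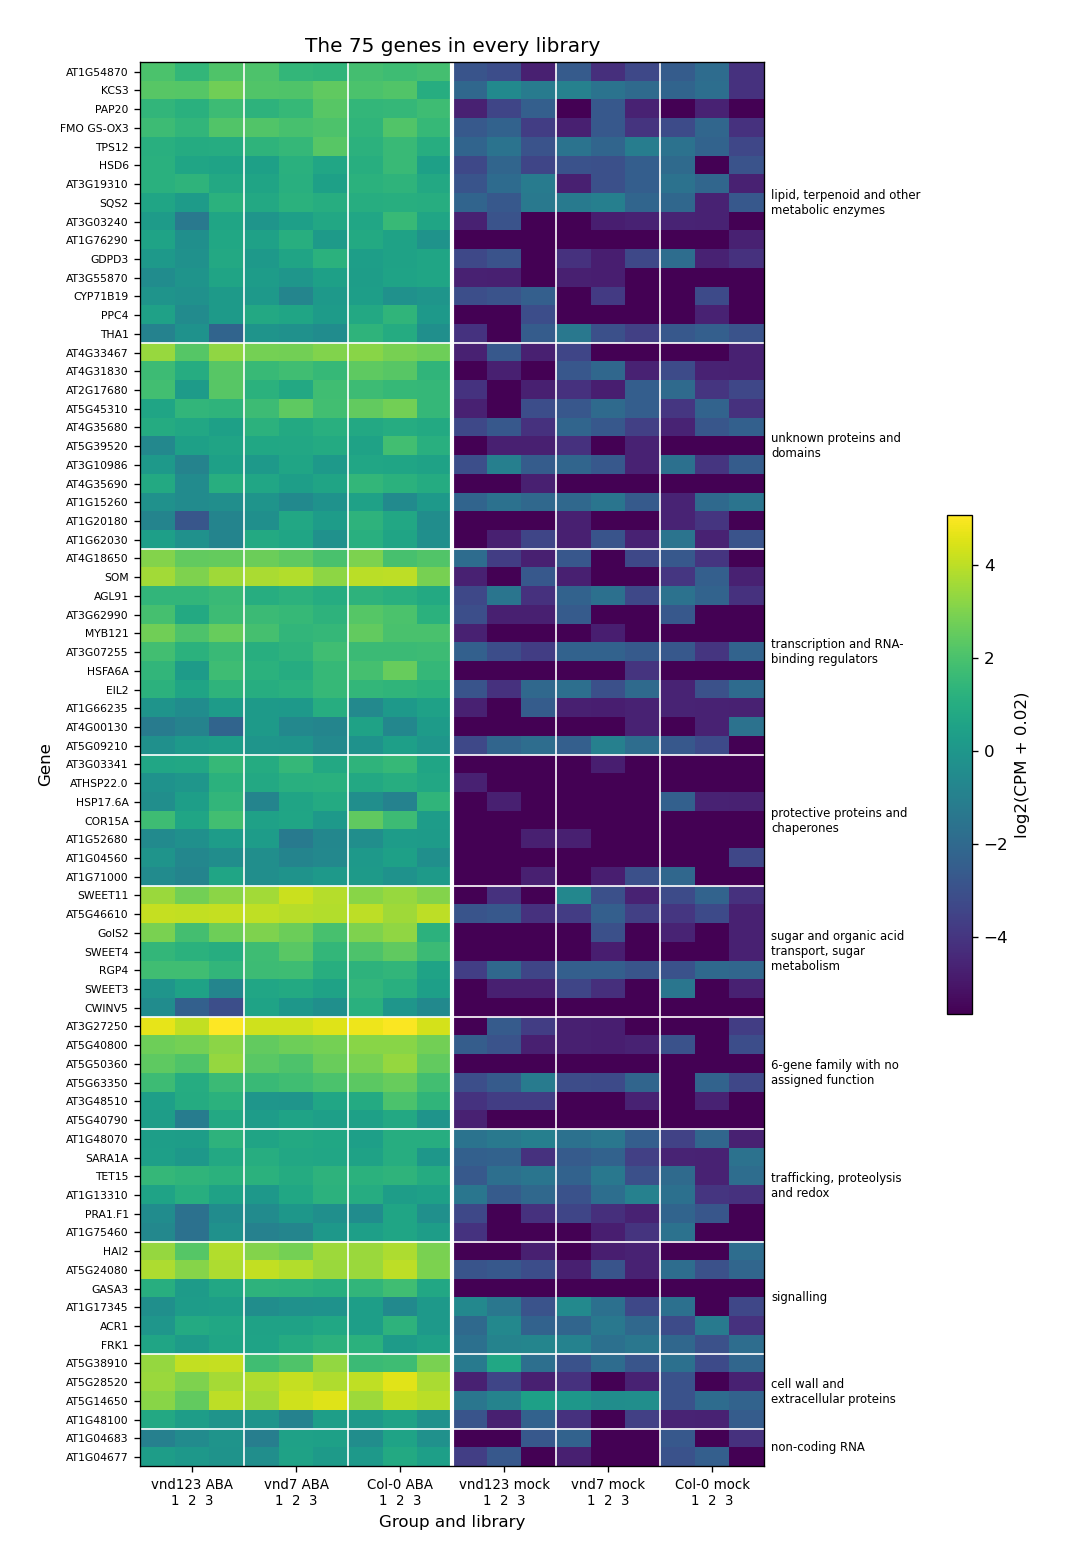
Level of each of the 75 genes (rows, grouped by role) in each of the 18 libraries (columns, 3 per group), as log2(CPM + 0.02) in colour. The 9 ABA libraries on the left are brighter than the 9 mock libraries on the right for nearly every gene, and the summed level was 206 to 336 CPM with ABA and 5.15 to 10.1 CPM in mock.

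Summed over the 75 genes, the libraries 1, 2 and 3 held 270, 206 and 313 CPM in vnd123 ABA, 257, 276 and 281 CPM in vnd7 ABA, and 302, 336 and 237 CPM in Col-0 ABA. The mock libraries held 6.5, 10.1 and 8.45 CPM in vnd123, 8.81, 8.13 and 6.16 CPM in vnd7, and 7.83, 5.21 and 5.15 CPM in Col-0. The ABA and mock sums did not overlap in any genotype. Within the ABA groups, vnd123 ABA 2 and Col-0 ABA 3 stood at the low end: 47 of the 75 genes had their lowest vnd123 ABA value in library 2 and 46 had their lowest Col-0 ABA value in library 3. In vnd7 ABA the lowest values were spread over the libraries, with 29, 20 and 26 genes lowest in libraries 1, 2 and 3.

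A family of 6 genes without an assigned function was present among the 75 as a whole. Each of the 6 proteins, of 272 to 303 residues, matched only the other 5 among 27444 annotated proteins (BLAST, e-value up to 1e-5), with 30.6% to 67.4% identity. The genes are AT3G27250, AT5G40800, AT5G50360, AT5G63350, AT3G48510 and AT5G40790, and the annotation calls 2 of them von Willebrand factor A domain proteins. AT5G40790 and AT5G40800 are neighbours on chromosome 5, 3304 bases apart on the same strand. All 6 rose in both mutants.

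AT3G27250 was the most abundant of the 75 per kb of exon in the mutants with ABA. It had 25.4, 16.9 and 33.8 CPM in vnd123 ABA, against 0, 8 and 3 reads (0, 0.151 and 0.0568 CPM) in vnd123 mock. In vnd7 it had 19.7, 19.9 and 23.8 CPM with ABA, against 1, 1 and 0 reads in mock. The change was 360-fold in vnd123 (exact 95% counting interval 201 to 723) and 1700-fold in vnd7 (470 to 14000), with fitted log2 changes of 8.51 ± 0.40 (SE, adjusted p = 5.65e-12) and 10.55 ± 0.50 (adjusted p = 4.69e-12). The intervals of the ratios are wide because the mock groups hold so few reads.

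With ABA, AT5G50360 had 5.28, 4.33 and 10.4 CPM in vnd123, 4.99, 4.18 and 6.19 CPM in vnd7, and 7.58, 10.5 and 5.61 CPM in Col-0, and it had 0 reads in all 9 mock libraries. Its level was thus at least 339-fold higher with ABA in vnd123, at least 275-fold higher in vnd7 and at least 372-fold higher in Col-0. AT5G40800, the neighbour of AT5G40790, had 6.60, 7.13 and 9.28 CPM in vnd123 ABA, against 8, 6 and 1 reads in vnd123 mock, and 5.63, 6.45 and 7.15 CPM in vnd7 ABA, against 1 read in each vnd7 mock library. AT5G40790 was weaker, with 1.25, 0.428 and 1.78 CPM in vnd123 ABA and 1.19, 1.48 and 1.31 CPM in vnd7 ABA, and 1 read in all mock libraries of the mutants together.

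AT5G63350 kept the most mock reads of the family. It had 3.28, 1.96 and 3.19 CPM in vnd123 ABA, against 5, 8 and 22 reads in vnd123 mock, a 12.8-fold change (9.05 to 18.7). AT3G48510, the protein most like it at 67.4% identity, had 1.31, 1.89 and 2.28 CPM in vnd123 ABA and 0.970, 0.933 and 1.63 CPM in vnd7 ABA, against 2, 3 and 3 reads in vnd123 mock and 0, 0 and 1 reads in vnd7 mock. Between vnd123 ABA and vnd7 ABA the log2 differences of the 6 genes lay between -0.32 ± 0.34 for AT5G63350 and 0.63 ± 0.35 for AT3G48510 (SE), and the test called none of them.

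**Figure D2:**
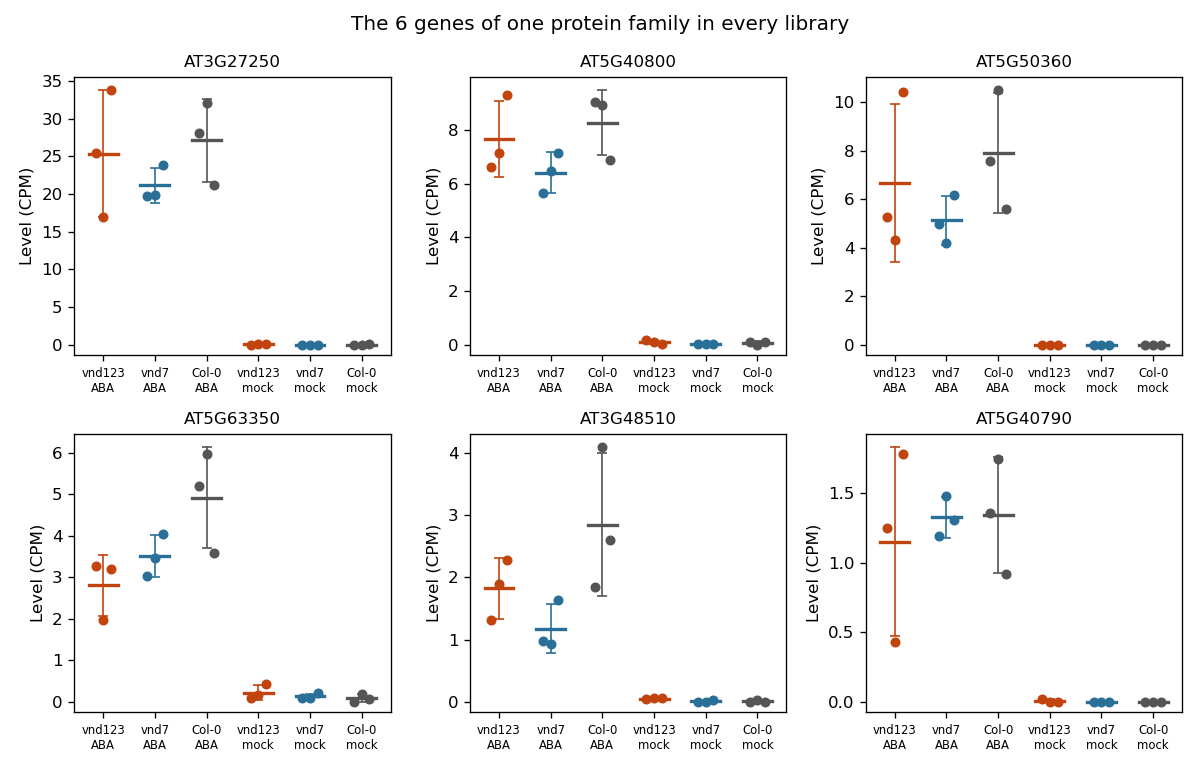
Level in CPM (linear axes) of the 6 family genes in the 3 libraries of each group, with points for libraries, a long bar for the mean and whiskers for the SD (n = 3). Every ABA point lies above every mock point in each panel, and AT5G50360 is at 0 in all 9 mock libraries.

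The stretches upstream of these 6 genes are printed because the genes share a response and protein sequence, so that a reader can compare the bases before their starts. Each is the 200 bases before the annotated gene start in the RefSeq annotation of TAIR10.1, 5′ to 3′ on the gene's strand. Genes were linked to it by locus code, and the build behind the authors' counts is not given in the sources used here. Capitals mark ACGTG on either strand (CACGT on the printed strand).
AT5G50360, chr5:20506355-20506554, minus strand: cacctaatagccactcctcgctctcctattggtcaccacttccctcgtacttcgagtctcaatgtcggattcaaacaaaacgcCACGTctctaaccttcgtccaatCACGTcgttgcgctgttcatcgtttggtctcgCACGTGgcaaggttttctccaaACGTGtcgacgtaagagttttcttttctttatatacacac
AT3G48510, chr3:17968591-17968790, minus strand: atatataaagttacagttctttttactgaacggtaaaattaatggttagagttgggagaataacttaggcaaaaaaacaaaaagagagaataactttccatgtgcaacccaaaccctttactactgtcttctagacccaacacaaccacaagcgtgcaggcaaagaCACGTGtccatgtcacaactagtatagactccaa
AT3G27250, chr3:10060809-10061008, plus strand: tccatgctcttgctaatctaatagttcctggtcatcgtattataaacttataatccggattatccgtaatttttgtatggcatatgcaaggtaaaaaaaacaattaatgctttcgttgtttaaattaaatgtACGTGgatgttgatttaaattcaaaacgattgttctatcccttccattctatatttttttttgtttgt
AT5G40800, chr5:16336018-16336217, minus strand: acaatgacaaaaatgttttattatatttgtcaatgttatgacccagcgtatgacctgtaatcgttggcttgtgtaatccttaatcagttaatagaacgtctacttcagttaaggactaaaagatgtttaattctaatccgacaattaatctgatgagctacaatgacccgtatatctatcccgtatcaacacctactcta
AT5G40790, chr5:16331277-16331476, minus strand: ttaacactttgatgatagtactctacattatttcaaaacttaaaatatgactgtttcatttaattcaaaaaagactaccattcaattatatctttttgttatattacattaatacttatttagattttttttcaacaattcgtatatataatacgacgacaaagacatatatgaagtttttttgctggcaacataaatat
AT5G63350, chr5:25381318-25381517, minus strand: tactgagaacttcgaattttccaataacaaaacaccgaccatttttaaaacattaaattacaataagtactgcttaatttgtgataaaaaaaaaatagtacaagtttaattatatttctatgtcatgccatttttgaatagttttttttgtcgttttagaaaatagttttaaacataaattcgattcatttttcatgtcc

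AT5G50360, silent in every mock library, has 4 separate stretches with the motif, the nearest 35 bases before its start. AT3G48510 has 1, 28 bases before its start, and AT3G27250 has 1, 63 bases before its start. The other 3 hold no match in these windows, which says only that these letters are not there. The window of AT5G50360 overlaps the model of AT5G50361, an uncharacterised protein-coding gene on the same strand with 0.0530 CPM in vnd123 ABA, 0.0714 CPM in vnd7 ABA and 0 reads in mock.

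Over the 250 bases before the start, the ACGTG motif was found for 30 of the 75 genes (40%), against 20.8% of all 37897 promoters and 23.7% of the promoters of genes tested. The longer CACGTG, which contains ACGTG on both strands and is known as the G-box, was found for 24% of the 75, against 5.39% of all promoters. ACGTGTC and ACGTGGC, which also contain ACGTG, were found for 10.7% and 8% of the 75, against 3.13% and 2.74% of all. CCGAC, the core of the element bound by dehydration- and cold-induced DREB factors, was found for 18.7%, against 12%. CAATNATTG, bound by homeodomain leucine zipper proteins, was found for 1.33%, against 0.905%, and TATAAA for 52%, against 44.6%. Promoters of genes tested held CACGTG in 7.26%, ACGTGTC in 4.14% and ACGTGGC in 3.71% of cases. For CCGAC, CAATNATTG and TATAAA their shares were 12.8%, 1.03% and 46.4%. All 7 motifs were searched on both strands. These shares describe letters in a window, not bound sites, and no test was made.

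**Figure D3:**
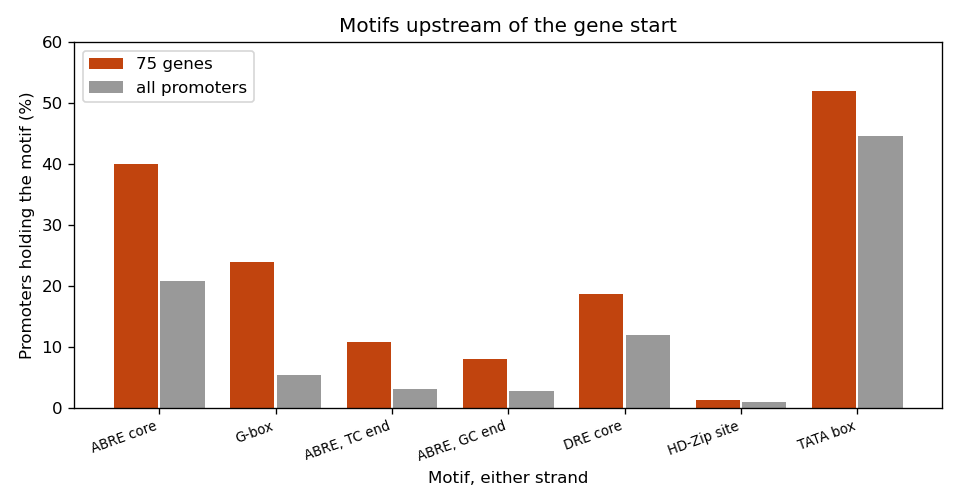
Share of promoters (250 bases before the gene start, in %) that hold each of 7 motifs on either strand, for the 75 genes and for all 37897 promoters. ABRE core is the ACGTG motif, with 40% against 20.8%, G-box is CACGTG, with 24% against 5.39%, the TC and GC ends are the 2 longer forms of ACGTG, DRE core is CCGAC and HD-Zip site is CAATNATTG. Among promoters of genes tested, which are not drawn, 23.7% held ACGTG and 7.26% held CACGTG.

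Among the other genes with the motif are 4 whose responses are described below, shown here with the same marking because each holds the motif within 200 bases: SWEET4, with 3 separate stretches, COR15A and GASA3, with 1 each, and AT4G33467, with 3.
SWEET4, chr3:10409978-10410177, minus strand: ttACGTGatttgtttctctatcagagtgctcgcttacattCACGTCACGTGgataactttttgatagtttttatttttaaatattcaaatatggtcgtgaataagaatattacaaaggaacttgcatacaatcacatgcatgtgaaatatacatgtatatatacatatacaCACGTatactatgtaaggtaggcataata
COR15A, chr2:17712331-17712530, minus strand: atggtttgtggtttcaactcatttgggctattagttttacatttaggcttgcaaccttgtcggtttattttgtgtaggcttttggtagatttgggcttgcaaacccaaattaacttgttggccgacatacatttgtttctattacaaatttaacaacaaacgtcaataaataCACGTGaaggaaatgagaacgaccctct
GASA3, chr4:6073647-6073846, minus strand: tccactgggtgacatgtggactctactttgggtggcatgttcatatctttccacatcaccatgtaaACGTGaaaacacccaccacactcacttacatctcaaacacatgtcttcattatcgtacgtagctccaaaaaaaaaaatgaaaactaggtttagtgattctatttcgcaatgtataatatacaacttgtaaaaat
AT4G33467, chr4:16102221-16102420, minus strand: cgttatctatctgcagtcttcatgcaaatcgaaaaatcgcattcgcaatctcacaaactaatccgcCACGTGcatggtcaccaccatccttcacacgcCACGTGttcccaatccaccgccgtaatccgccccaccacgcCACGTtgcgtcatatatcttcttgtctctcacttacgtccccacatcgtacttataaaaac

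Of the 6 signalling genes, 5 rose in both mutants. Because 74 of the 75 rose in each mutant, against 18.6% of all genes in vnd123 and 18.8% in vnd7, such counts per role follow from the whole set. They set no role apart. HAI2 encodes a clade A PP2C, a class that holds back ABA signalling. It had 10.3, 4.74 and 14.3 CPM in vnd123 ABA, against 0, 0 and 1 reads in vnd123 mock, and 8.48, 7.08 and 11.4 CPM in vnd7 ABA, against 0, 1 and 1 reads in vnd7 mock. In Col-0 it had 11.1, 13.5 and 7.53 CPM with ABA, and 14 reads in mock library 3 but none in the other two. The ratio was 1540 in vnd123 (exact 95% counting interval 276 to 61000) and 721 in vnd7 (199 to 5960). GASA3, a small cysteine-rich protein of the gibberellin-regulated GASA family, had 2.12, 1.16 and 1.71 CPM in vnd123 ABA and 2.39, 2.35 and 2.11 CPM in vnd7 ABA, against 0 reads in all 9 mock libraries. It was at least 89.4-fold higher with ABA in vnd123.

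FRK1, a receptor-like kinase gene known from its induction by bacterial flagellin, and AT1G17345 were the signalling genes with the least contrast. FRK1 had 1.56, 1.16 and 1.56 CPM in vnd123 ABA, against 0.295, 0.530 and 0.568 CPM in vnd123 mock, a log2 change of 1.68 ± 0.35 (SE, adjusted p = 0.000971). AT1G17345 had 0.798, 1.21 and 1.28 CPM in vnd123 ABA, against 0.630, 0.360 and 0.114 CPM in vnd123 mock, and 0.745, 0.851 and 0.876 CPM in vnd7 ABA, against 0.635, 0.290 and 0.0813 CPM in vnd7 mock. The groups did not overlap, but the spread in mock was wide. The log2 changes of 1.63 ± 0.64 (SE, adjusted p = 0.0571) and 1.36 ± 0.64 (adjusted p = 0.114) missed the threshold. Over the alternatives tried, the adjusted p ran from 0.0311 to 0.203 in vnd123 and from 0.032 to 0.34 in vnd7.

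All 11 transcription and RNA-binding regulators rose in both mutants. SOM encodes a CCCH zinc finger protein known for holding back seed germination in the dark. It had 11.9, 7.99 and 11.7 CPM in vnd123 ABA, against 1, 0 and 7 reads in vnd123 mock, and 13.3, 14.3 and 9.64 CPM in vnd7 ABA, against 1, 0 and 0 reads in vnd7 mock. Its log2 change was 7.69 ± 0.51 in vnd123 (SE, adjusted p = 5.44e-10) and 10.55 ± 0.64 in vnd7 (adjusted p = 1.46e-10). MYB121, an R2R3-type MYB factor, had 6.71, 4.23 and 5.99 CPM in vnd123 ABA and 3.74, 2.66 and 2.79 CPM in vnd7 ABA, against 1 read in each mutant's 3 mock libraries together. HSFA6A, a heat stress transcription factor, had 2.61, 1.16 and 3.31 CPM in vnd123 ABA and 2.30, 1.95 and 2.92 CPM in vnd7 ABA, against 0 reads in vnd123 mock and 2 in vnd7 mock. AGL91, of the MADS-box family, responded less, with 2.79 ± 0.215 CPM in vnd123 ABA and 0.152 ± 0.164 CPM in vnd123 mock (SD, n = 3 each), an 18.1-fold change.

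All 7 genes of sugar and organic acid transport and sugar metabolism rose in both mutants, 3 of them SWEET genes. SWEET proteins carry sugars across membranes, and SWEET11 exports sucrose toward the phloem of leaves. SWEET11 had 11.2, 6.85 and 9.23 CPM in vnd123 ABA, against 0, 2 and 0 reads in vnd123 mock, and 12.1, 18.7 and 14.8 CPM in vnd7 ABA, against 32, 6 and 1 reads in vnd7 mock. Most of its vnd7 mock reads came from 1 library. SWEET4 had 2.72, 2.29 and 2.06 CPM in vnd123 ABA and 3.31, 5.01 and 2.75 CPM in vnd7 ABA, against 0 and 1 reads in the mock groups, and SWEET3 averaged 0.977 ± 0.418 CPM in vnd123 ABA and 1.62 ± 0.203 CPM in vnd7 ABA (SD, n = 3 each), against 2 and 6 mock reads.

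AT5G46610, of the aluminium-activated malate transporter family, varied little between libraries. It had 17.5, 17.1 and 17.5 CPM in vnd123 ABA, against 6, 7 and 2 reads in vnd123 mock, and 16.7, 15.4 and 14.3 CPM in vnd7 ABA, against 3, 10 and 3 reads in vnd7 mock. The log2 changes were 7.53 ± 0.25 (SE, adjusted p = 7.63e-14) and 7.34 ± 0.25 (adjusted p = 9.1e-14). GolS2, a galactinol synthase that starts the synthesis of raffinose sugars, had 7.47, 3.65 and 6.62 CPM in vnd123 ABA and 0 reads in vnd123 mock, and 8.10, 6.39 and 3.86 CPM in vnd7 ABA and 6 reads in vnd7 mock, all in library 2. CWINV5, a cell wall invertase that splits sucrose outside the cell, was low in vnd123 ABA, with 0.726, 0.176 and 0.10 CPM, against 1.45, 1.01 and 0.793 CPM in vnd7 ABA, and had 0 reads in all 9 mock libraries.

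All 7 genes of protective proteins and chaperones rose in both mutants. COR15A, which protects chloroplast membranes during freezing and drying, had 3.37, 1.56 and 3.51 CPM in vnd123 ABA, 1.40, 1.58 and 1.06 CPM in vnd7 ABA, and 5.43, 3.26 and 1.2 CPM in Col-0 ABA, against 0 reads in all 9 mock libraries. The small heat shock protein genes HSP17.6A and ATHSP22.0 had 1 mock read each in vnd123 and none in vnd7. HSP17.6A had 0.762, 1.26 and 2.61 CPM in vnd123 ABA, 0.554, 1.5 and 1.84 CPM in vnd7 ABA, and 0.766, 0.522 and 2.54 CPM in Col-0 ABA. Library 3 was the highest in each genotype for this gene.

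All 4 cell wall and extracellular proteins rose in both mutants, and 3 of them were among the most abundant members. AT5G28520, of the mannose-binding lectin family, had 11.2, 8.06 and 12.5 CPM in vnd123 ABA, against 1, 4 and 1 reads in vnd123 mock, and 14.1, 17.8 and 14.1 CPM in vnd7 ABA, against 2, 0 and 1 reads in vnd7 mock. AT5G38910, a cupin protein, had 10.3, 16.9 and 17.6 CPM in vnd123 ABA, against 0.394, 1.67 and 0.284 CPM in vnd123 mock, and 3.43, 4.32 and 10.1 CPM in vnd7 ABA, against 0.112, 0.256 and 0.122 CPM in vnd7 mock. AT5G14650, of the pectin lyase-like family, was not silent in the mutants' mock libraries. It had 9.07, 5.69 and 16.2 CPM in vnd123 ABA, against 0.354, 0.530 and 1.36 CPM in vnd123 mock, and 12.1, 20.0 and 23.5 CPM in vnd7 ABA, against 0.989, 0.750 and 0.772 CPM in vnd7 mock.

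All 15 metabolic enzyme genes rose in both mutants, at lower levels, with mean levels of 0.528 to 5.46 CPM in vnd123 ABA and 0.826 to 4.77 CPM in vnd7 ABA. The most abundant per kb of exon were AT1G54870, of the NAD(P)-binding Rossmann-fold superfamily, KCS3, of the 3-ketoacyl-CoA synthase family that elongates fatty acids, the purple acid phosphatase gene PAP20, and FMO GS-OX3, which oxidises the side chains of glucosinolates. They had 2.66, 2.44, 1.77 and 1.67 CPM per kb over both mutants with ABA, against 12.5 CPM per kb for AT3G27250. Of the remaining roles, all 6 genes of trafficking, proteolysis and redox, both non-coding RNAs and all 11 unknown proteins rose in both mutants. Among the unknown proteins, AT4G33467 had 10.7, 4.79 and 9.81 CPM in vnd123 ABA, against 1, 7 and 1 reads in vnd123 mock, and 7.19, 6.85 and 8.30 CPM in vnd7 ABA, against 4, 0 and 0 reads in vnd7 mock.

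Between the mutants, the design asks whether losing VND1, VND2 and VND3 or losing VND7 leaves a different ABA state. With ABA, edgeR called 0 of the 75 genes different between vnd123 and vnd7, where 0.68% of all genes were called, and 11 of the 75 had an unadjusted p under 0.05, 14.7% against 10.1% of all genes. DESeq2 called 1, MYB121. MYB121 was higher in each vnd123 ABA library than in each vnd7 ABA library, with a log2 difference of 0.88 ± 0.24 (SE). Its adjusted p was 0.136 with edgeR, 0.0318 with DESeq2 and between 0.0318 and 0.356 over all alternatives. AT5G38910 followed, with a log2 difference of 1.33 ± 0.43 (SE, adjusted p = 0.262). Its groups were only narrowly apart, with 10.3 CPM as the lowest vnd123 ABA value and 10.1 CPM as the highest vnd7 ABA value.

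Of these 11 genes, 8 were lower in vnd123, and edgeR called none of the 11. The 8 include SWEET11 at -0.74 ± 0.30, SWEET4 at -0.65 ± 0.27, CWINV5 at -1.64 ± 0.65 and AT1G20180, a transmembrane protein, at -1.57 ± 0.54 (log2 difference ± SE, adjusted p = 0.41, 0.438, 0.424 and 0.312). The other genes of the sugar and organic acid role did not all share this direction. SWEET3 stood at -0.74 ± 0.54, GolS2 at -0.05 ± 0.41, RGP4 at 0.12 ± 0.28 and AT5G46610 at 0.16 ± 0.15. Over all 75 genes, 43 were lower in vnd123 ABA than in vnd7 ABA, and the median log2 difference was -0.07. A p that misses the threshold does not show that the mutants have the same levels.

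**Figure D4:**
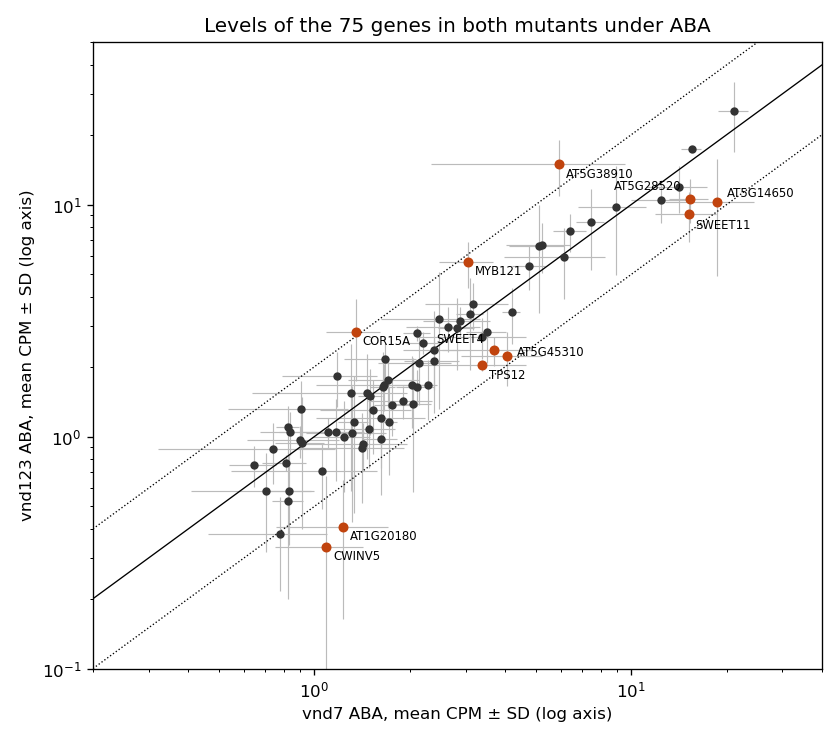
Mean level of each of the 75 genes in vnd123 ABA (vertical) against vnd7 ABA (horizontal) in CPM on log axes, with whiskers for the SD (n = 3 each, shortened at the lower end where the SD is close to or above the mean). The solid line marks equal levels, dotted lines a 2-fold difference, and the 11 named points in colour have an unadjusted p under 0.05; the highest point is AT3G27250.

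In mock, edgeR called 0 of the 75 genes different between vnd123 and vnd7, where 0.494% of all genes were called. The 75 were chosen for low mock levels in Col-0, and their median mock level was 0.0571 CPM in vnd123 and 0.0452 CPM in vnd7. With so few reads a call was hard to reach, so the 0 says little about these genes. The difference of the responses rests on the same mock reads, and the shares below are set beside genes with more reads. At an unadjusted p under 0.05 there were 9 with edgeR, 12% of the 75 against 5.01% of all genes, and 14 with DESeq2, 18.7% against 5.36%, which also called 0. The smallest p were those of SWEET11, at a log2 difference of -3.97 ± 1.21 (SE, adjusted p = 0.358), and AT4G31830, an uncharacterised protein, at -3.85 ± 1.2 (adjusted p = 0.405), on 2 and 39 reads in the vnd123 and vnd7 mock groups for SWEET11 and 1 and 21 for AT4G31830. For the difference of the ABA responses, vnd123 minus vnd7, edgeR called 0 of the 75, as it did of all genes (0%), with 5 members at an unadjusted p under 0.05, 6.67% against 4.62% of all genes. DESeq2 also called 0 of the 75, with 10 at an unadjusted p under 0.05, 13.3% against 4.93%.

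**Figure D5:**
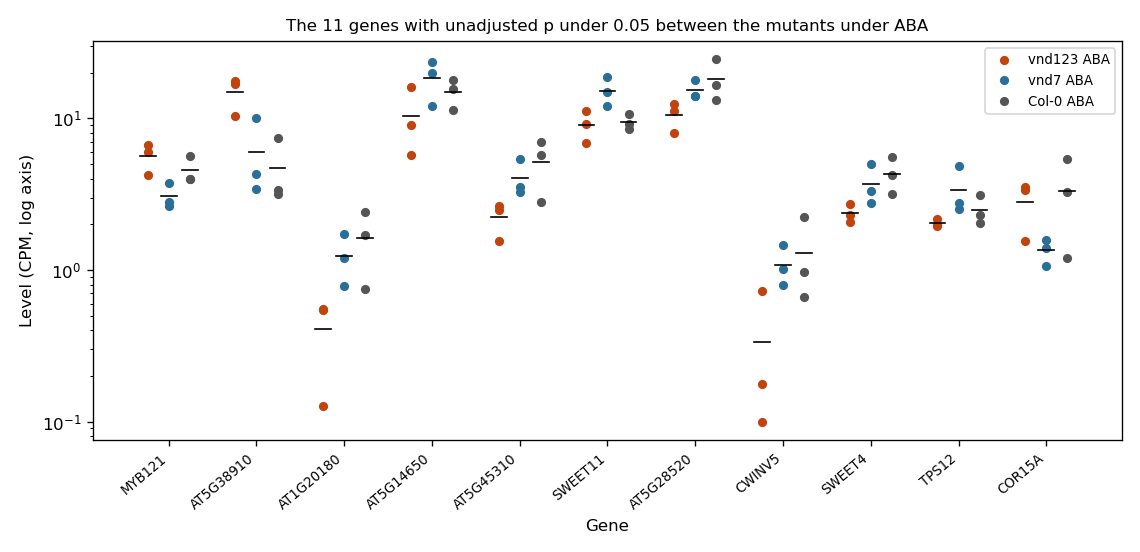
Level in CPM (log axis) in each ABA library of vnd123, vnd7 and Col-0 for the 11 genes with an unadjusted p under 0.05 between the mutants, ordered by that p, with a bar for the mean of 3 libraries. MYB121, AT5G38910 and COR15A have higher means in vnd123 than in vnd7, the other 8 lower means, and none passed the adjusted threshold with edgeR.

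Against Col-0, levels are set side by side without a test, because the Col-0 libraries chose the genes and the demand for at least 1 CPM in Col-0 ABA favours genes that were high there. The mean was lower than in Col-0 ABA for 57 of the 75 genes in vnd123 ABA and for 55 in vnd7 ABA, with a median log2 ratio of -0.23 in each. Over all genes tested the medians were 0.01 and -0.01. The ratios ran from -1.99 to 1.67 in vnd123 and from -1.29 to 0.69 in vnd7, and 66 and 72 of the 75 genes lay within 2-fold of Col-0. The median level was 1.67 CPM in vnd123 ABA, 1.91 CPM in vnd7 ABA and 2.17 CPM in Col-0 ABA.

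The same thresholds picked fewer genes in the mutants, a difference that was not tested. Fixed limits make such counts sensitive to single libraries: leaving out a Col-0 library changed the 75 to between 70 and 79. Some genes missed narrowly, such as SWEET3 at 0.977 CPM in vnd123 ABA. In vnd123, 62 locus codes (0.189%) had an ABA mean of at least 1 CPM and a mock mean under 0.2 CPM, and 53 of these were among the 85 of Col-0, 85.5% of the vnd123 list and 62.4% of the Col-0 list. In vnd7, 71 locus codes (0.216%) met them, and 61 were shared, 85.9% of the vnd7 list and 71.8% of the Col-0 list. Of the 75 genes, 46 met both thresholds in vnd123, 52 in vnd7 and 42 in both. Of the 29 that did not in vnd123, 16 had an ABA mean under 1 CPM and 15 a mock mean of at least 0.2 CPM, 2 of them both. Of the 23 that did not in vnd7, 12 had the ABA mean below its limit and 14 the mock mean at or above its own, 3 of them both.

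Silence was a matter of degree. In the 3 mock libraries of vnd123, vnd7 and Col-0, 12, 11 and 13 of the 75 genes had 0 reads and a further 15, 20 and 11 had 1 to 3 reads. AT5G50360, COR15A, GASA3 and CWINV5 had 0 reads in all 9 mock libraries. A count of 0 over a group allows up to 3 counts, and such limits cover counting error only. Just inside the mock limit in Col-0 were FRK1, AT5G38910 and AT5G24080, at 0.199, 0.195 and 0.194 CPM, and just outside it AT5G53380 and AT1G78720 at 0.205 CPM and AT3G54830 at 0.214 CPM. Just inside the ABA limit were AT1G17345 at 1.00 CPM and CYP71B19 and AT1G04683 at 1.01 CPM, and just outside it HIPP27, HVA22B and AT2G38240, at 0.984, 0.970 and 0.935 CPM.

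The gene models differed in exon number and length. Of the 75 genes, 30.7% had a single exon, against 15.4% of the genes tested, and the median exon length was 1297 against 1741 bases. The genes lay on chromosomes 1 to 5 in numbers of 25, 3, 16, 10 and 21. The library kit does not mark strand, and 12 of the 75 overlap another annotated gene, among them AT5G14650, AT4G33467, AT5G24080, FRK1, CWINV5 and TPS12, so reads of the partner cannot be told apart from theirs. AT1G52680 lies 697 bases from LEA7, which averaged 493, 523 and 590 CPM in vnd123, vnd7 and Col-0 ABA. Along most of their length, 3 of the 73 proteins have a match of at least 90% identity elsewhere in the annotation: CYP71B19 with CYP71B20, SARA1A with SAR1B and TPS12 with TPS13. For these the reads may have been split between the copies.

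SWEET11 is 83.9% identical to SWEET12, which is not among the 75. SWEET12 averaged 4.01 CPM in vnd123 ABA, 8.93 CPM in vnd7 ABA and 17.2 CPM in Col-0 ABA, and 0.0318, 0.575 and 1.40 CPM in the mock groups of the same genotypes. GASA2, 84.8% identical to GASA3, had 0 reads in all 18 libraries.

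Genes of the seed programme, where ABA is best known for inducing protective proteins, were examined from fixed lists. Of 16 seed storage and oil body genes, 7 had 0 reads in all libraries and 4 were tested, of which 0 rose and 1 fell in each mutant. Of 11 embryo regulators, 4 were tested. ABI5 rose in vnd123, at a log2 change of 0.94 ± 0.20 (SE, adjusted p = 0.00107). In vnd7 its change of 0.49 ± 0.20 (adjusted p = 0.0635) had the same direction and missed the threshold. None of the 4 was called higher in vnd7, where EEL fell. Of 18 late embryogenesis abundant (LEA) genes outside the 75, 9 were tested, and 6 rose in vnd123 and 7 in vnd7, among them LEA4-5 with 202 CPM in vnd123 ABA and 171 CPM in vnd7 ABA, against 0.572 and 0.390 CPM in their mock groups. Of 8 bZIP factors and their AFP repressors, 6 rose and 1 fell in each mutant. Of 9 stress MYB genes 7 rose in each, including MYB121 of the 75 and MYB102, which both met the Col-0 thresholds. Of 3 stress NAC genes 2 rose in vnd123 and 3 in vnd7.

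No guard cell, pollen or flower marker was called in either mutant's response by edgeR, with 2 genes of each list tested. That is too few to set a count of 0 apart from the shares of all genes. Those shares were 18.6% higher and 13.8% lower in vnd123, and 18.8% and 14.5% in vnd7. Of 10 photosynthesis genes, 6 were tested, and 3 fell in vnd123 and 2 in vnd7. Among the 12 root markers 3 were called in vnd123 (2 of them higher with ABA) and 4 in vnd7 (2 higher).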

How the data were processed

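RNA from roots was sequenced in 18 libraries, 3 per group. The authors deposited raw read counts per gene, as whole numbers that were not normalized. HISAT2 and HTSeq are named in the submitters' processing notes; their versions and options, genome build and annotation: not given in the sources used here. Paired reads of 150 bases came from a kit that does not mark strand, per the labels' protocols. Names, gene models and sequences were taken from RefSeq (TAIR10.1) by locus code, and all 75 genes were found there.

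Levels are CPM on column totals. Counts as deposited were tested with edgeR 4.0.16 in R 4.3.3: filterByExpr by group left 20869 genes, library sizes had TMM factors, and 1 quasi-likelihood model, in which each group had its own coefficient, used all 18 libraries (common biological coefficient of variation 0.106). Every adjusted p is a Benjamini-Hochberg value from edgeR's quasi-likelihood test over all genes tested, called below 0.05, unless DESeq2 1.42.0 is named. The SE given with a log2 change or difference is its absolute value divided by the square root of the test's F. It is an approximation derived from the test and not a standard error estimated by the model. No library repeated another: between replicates, chi-square divided by its degrees of freedom was 9.07 to 31.6. Fold intervals are exact binomial at 95%, and a group with 0 reads was set to 3 counts over the group. Intervals and bounds cover counting error only, since PCR copies of 1 molecule can be counted more than once. Proteins were compared with BLAST 2.17.0.

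The genes, roles, lists, thresholds and motifs were chosen with earlier results of these data known. Named are, by rule, up to 4 genes per role with the highest level per kb, those not called, those nearest the thresholds and those with extreme mock levels in a mutant. Others, including the remaining family members, MYB121 and the genes with the smallest p between the mutants, were added after their values were seen. All columns matched a sample, so 0 were left out. Features without a locus code, 1385 of them, could not be members.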

Additional observations from a re-analysis of the deposited data

How the results depend on the processing

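Over 23 alternatives per test, 74 to 75 of the 75 genes rose with ABA in vnd123 and 72 to 74 in vnd7. Leaving out 1 library gave 74 to 75 in vnd123 and 72 to 74 in vnd7. The calls lost in vnd7 were those of AT5G09210, with an adjusted p of 0.0657, 0.0596, 0.0952 and 0.0732 without vnd7 ABA 1, vnd7 ABA 2, vnd7 mock 1 and vnd7 mock 3, and of THA1, at 0.0589 and 0.0556 without vnd7 mock 2 and vnd7 mock 3. AT1G17345 was called in vnd123 by DESeq2 (adjusted p = 0.0311), with no filter on low counts (0.0461), with the mutants' libraries alone (0.0426), and without 5 single libraries, vnd123 mock 1 moving its log2 change most, to 2.26. In vnd7 it was called without vnd7 mock 1, at a log2 change of 2.20. Between vnd123 and vnd7 under ABA, DESeq2 called 1 gene. Every other alternative, each left-out library included, called 0 under ABA, in mock and for the difference of the responses. All 75 genes kept their direction in both ABA responses under every alternative. In the comparisons of the mutants, where edgeR called 0 of the 75, 28 of the 75 under ABA, 27 in mock and 37 for the difference of the responses changed sign under at least 1 alternative.

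The replicate numbers did not clearly pair the samples. Of 45 pairs of same-numbered libraries, 6 deviated together with a correlation over 0.1 and 19 correlated best with their own number. The correlations ran from -0.0955 to 0.202, the highest between Col-0 mock 1 and vnd7 mock 1. Whether same-numbered samples shared a planting or day cannot be told from these values. A replicate block gave 75 genes in vnd123 and 74 in vnd7, and 0 in the 3 comparisons of the mutants.

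The set of genes itself depended on its thresholds. A mock limit of 0.1 CPM left 43 genes, an ABA limit of 2 CPM left 43, and a demand for 0 reads in Col-0 mock left 13, while TMM-scaled libraries gave 77 and leaving out a Col-0 library gave 70 to 79. Within 100 bases of the start the shares among the 75 were 25.3% for ACGTG, 14.7% for CACGTG, 5.33% for ACGTGTC and for ACGTGGC, 8.0% for CCGAC and 32.0% for TATAAA, against 10.4%, 2.91%, 1.57%, 1.57%, 5.41% and 23.7% of all promoters. Among promoters of genes tested they were 12.9%, 4.2%, 2.29%, 2.29%, 6.11% and 24.6%, in the same order. A shorter window holds fewer matches by construction. Of fixed-list genes outside the 75, 21 to 26 rose in vnd123 and 26 to 28 in vnd7 when 1 library was left out, against 23 and 26 with all. The few reads in the mock groups limit how exactly a fold can be given, and with 3 libraries per group small differences between the mutants may go uncalled.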

Other observations

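A few genes met the same thresholds in a mutant and not in Col-0, 9 in vnd123 and 10 in vnd7. Most of them missed in Col-0 by their mock level, which was at or above 0.2 CPM for 6 of the 9 and for 9 of the 10. They include VSP2, a vegetative storage protein known from jasmonate responses, with 1.29 CPM in vnd123 ABA and 0.102 CPM in vnd123 mock, 1.96 CPM in vnd7 ABA and 0.0227 CPM in vnd7 mock, and 1.66 CPM in Col-0 ABA and 0.220 CPM in Col-0 mock. HB21, a homeodomain leucine zipper factor, met them in vnd7, with 3.71 CPM in ABA and 0.133 CPM in mock, beside 5.15 CPM in Col-0 ABA and 0.293 CPM in Col-0 mock. PROPEP5, a precursor of defence peptides, met them in both mutants, with 1.57 CPM in vnd123 ABA and 0.193 CPM in vnd123 mock, and 1.25 CPM in vnd7 ABA and 0.131 CPM in vnd7 mock.

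AT1G53900, annotated as an eIF-2B family protein, stood apart among these. It averaged 1.25 ± 2.08 CPM in vnd123 ABA (SD, n = 3), an SD above the mean, against 0.124 CPM in vnd7 ABA and 0.00823 CPM in Col-0 ABA, and 0.129, 0.0963 and 0.0673 CPM in the mock groups of the same genotypes. These genes were singled out after their values were seen, and no test was made of them.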
